A study of Mus musculus with 18 samples.

Results

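A set of 10 genes for ubiquitin enzymes and ligase subunits with known or proposed roles in red cell maturation was followed in mouse G1E-ER4 cells. The set was defined by gene symbol and held the conjugating enzymes Ube2o, Ube2h and Ube2b, the CTLH ligase subunits Maea, Rmnd5a and Ranbp10, the tripartite-motif genes Trim10 and Trim58, the cullin Cul4a and the F-box gene Fbxo7. Of the 10, 9 had a probe set annotated to that gene alone, out of 18193 genes so measured, and the expression of Trim58 was not analysed here. All 9 lay above the 40th percentile of every one of the 18 arrays, and all 9 were tested among 12719 genes. G1E-ER4 is an erythroid progenitor-like line whose own Gata1 gene is disrupted and which carries GATA1 fused to an estrogen receptor domain. Expression was read on Affymetrix arrays before estradiol (0 h) and after 3, 7, 14, 21 and 30 h in 20 nM estradiol, with 3 arrays at each time. Every group is this 1 line, every later group had estradiol, and no time-matched cells without it were analysed here, so effects of estradiol itself, of GATA1 and of hours in culture cannot be told apart. The labels call the 3 arrays biological replicates without naming separate cultures, so p-values reflect only the spread among these arrays, and part of that spread may be technical.

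Ubiquitin is attached to proteins by an activating enzyme (E1), a conjugating enzyme (E2) and a ligase (E3), and chains of it send a protein to the proteasome. As red cell precursors mature they dismantle ribosomes, organelles and most proteins other than hemoglobin, and several E2 and E3 enzymes accumulate at that stage while other parts of the system decline. UBE2O acts as E2 and E3 in one protein and removes ribosomal proteins and unpaired alpha globin in mouse reticulocytes. UBE2H is the E2 that works with the CTLH ligase, a ring-shaped assembly in which MAEA and RMND5A form the catalytic RING pair.

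The arrays were alike in scale, with medians of 4.04 to 4.09 on the log2 scale, and the mean Pearson r among arrays of one time was 0.995 to 0.998. The summed linear signal of 6 measured erythroid markers (of 8 listed) was 6207 to 6488 at 0 h and 19940 to 20090 at 30 h. Log2 means of Alas2 went from 5.85 to 12.34 and of Slc4a1 from 6.34 to 12.42. Klf1 went from 11.31 to 12.11, and Gata1, which the line carries as a fusion, from 10.21 to 11.08. Epor was at 10.12 and 10.24 and Hba-a2 at 10.43 and 10.57. Summed markers of mast cells and basophils (5 of 5 measured) lay at 387 to 486 at 0 h and 37.5 to 42.3 at 30 h. Cpa3 of that list had a log2 mean of 8.08 and then 2.66. Gzmb, Ms4a2 and Hdc had 6.29, 5.57 and 5.09 at 0 h and 3.41, 2.14 and 3.95 at 30 h. Summed markers of megakaryocytes and platelets (4 of 5) went from 415 to 450 down to 176 to 193. Those of macrophages and granulocytes (5 of 5) and of lymphoid cells (4 of 5) lay between 38.8 and 82.5 throughout. The megakaryocyte and platelet markers differed: log2 means of Gp5 went from 7.62 to 3.63 and of Pf4 from 6.93 to 4.59. Gp9 went up from 6.08 to 6.74, and Itga2b was at 5.60 and 5.40. Adgre1, Mpo, Elane, Cd3e and Fcer1a, from the macrophage, granulocyte, lymphoid and mast cell lists, lay at means of 2.40 or less at 0 h and 30 h. That is below the arrays' 40th percentile (3.20 to 3.35). Fcer1a was the only marker of the mast cell and basophil list below it at 0 h. Of the same lists, Cd68 went from 5.55 to 4.76, Csf1r from 3.48 to 4.12, Cd4 from 3.68 to 4.12 and Cd8a from 3.61 to 4.12, while Pax5 was at 3.52 and 3.22. The part of these other-lineage signals in the results below was not tested. In whole-culture RNA, fewer cells of a type and less RNA per cell cannot be told apart.

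By 30 h, 8 of the 9 measured enzymes had risen and 0 had fallen. At that comparison 36.6% of all tested genes were called higher and 33% lower (limma, Benjamini-Hochberg adjusted p under 0.05). The rises ran from 1.7-fold for Fbxo7 to 4.78-fold for Ranbp10, 5 of them at least 2-fold, and the median of the 9 log2 differences was 1.09, against 0.094 over all tested genes. Maea was the exception, at 0.051 (SE 0.065, limma adjusted p = 0.495). The same 8 genes were the ones whose 30 h arrays all lay above their 0 h arrays, a separation seen upward in 37.7% of tested genes. All 9 changed over the time course (limma F test), as did 74.3% of tested genes. From 0 h to 30 h the log2 gap between 3' and 5' control probe sets, a measure of RNA length, widened on all 4 control genes, Actb going from 1.89 to 2.20, Gapdh from 1.13 to 1.52, the transferrin receptor gene from 1.79 to 2.41 and pyruvate carboxylase from 1.77 to 2.60. Its part in the rises was not tested.

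**Figure D1:**
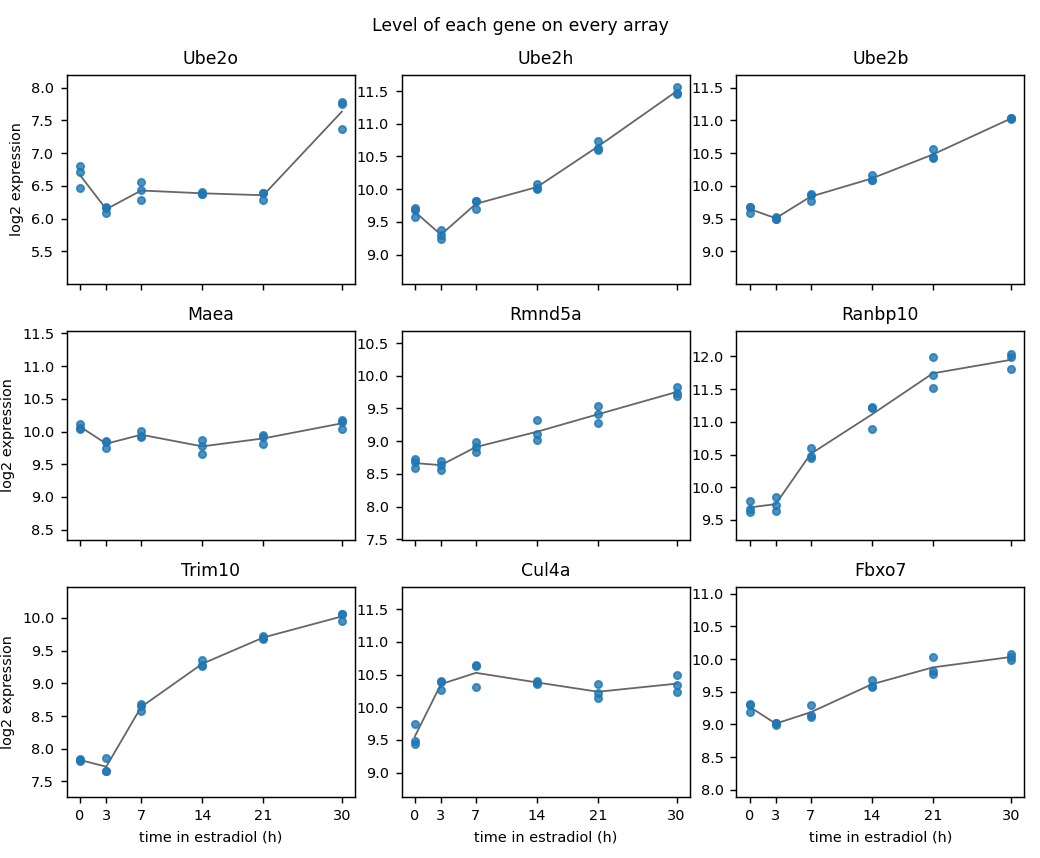
Log2 expression (vertical axis) of the 9 measured enzymes against hours in estradiol, with a point for each of 3 arrays per time and a line through the means; every panel spans the same height on the log2 scale. Cul4a had risen by 3 h and Ranbp10 and Trim10 by 7 h, while Ube2o, Ube2h, Maea and Fbxo7 were lower at 3 h. Ube2o rose above its 0 h level only between 21 h and 30 h, and Maea returned to its 0 h level.

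The 9 genes did not rise in step. At 3 h, Cul4a was the 1 gene called higher, when 11.2% of tested genes were, and Ube2o, Ube2h, Maea and Fbxo7 were called lower, when 14.7% were. At 7 h, Ube2b, Rmnd5a, Ranbp10, Trim10 and Cul4a were called higher than at 0 h (15.3% of tested genes) and 0 were lower (16.3%). At 14 h and again at 21 h, 7 were higher (22.2% and 31.4%) and 2, Ube2o and Maea, were lower (22.7% and 28.6%). The 14 h rises of Ube2h, Ube2b and Rmnd5a were called on the probe set used alone: their other probe sets gave 0.38, 0.059 and 0.0039 for Ube2h (adjusted p from 0.0619 to 0.987), 0.082, 0.20 and 0.29 for Ube2b (adjusted p from 0.0658 to 0.502) and 0.23 for Rmnd5a (adjusted p = 0.204). With each array shifted to the same mean of its hybridisation controls, 0 of the 4 falls at 3 h were called. They were then -0.42 for Ube2o, -0.25 for Ube2h, -0.16 for Maea and -0.16 for Fbxo7, with adjusted p of 0.268, 0.616, 0.797 and 0.809, against -0.52, -0.35, -0.26 and -0.26 as deposited. The falls at 14 h shrank to -0.047 for Ube2o and -0.072 for Maea. Those at 21 h were close to their size as deposited, at -0.29 and -0.17, but were not called (adjusted p = 0.26 and 0.542). This control scaling shifted the all-gene median by -0.216 to 0.277 depending on the comparison, and left all 8 rises at 30 h called.

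Ube2o, the hybrid E2 and E3 enzyme, rose late. Its probe set (1433765_at) read 6.71, 6.47 and 6.81 at 0 h, 6.09, 6.18 and 6.17 at 3 h, 6.44, 6.57 and 6.28 at 7 h, 6.41, 6.37 and 6.37 at 14 h, 6.39, 6.29 and 6.40 at 21 h and 7.79, 7.37 and 7.75 at 30 h. The arrays at 30 h stood above every other array, and those of 7, 14 and 21 h lay within a narrow band below most of the 0 h arrays. The change from 21 h to 30 h was 1.28, or 2.43-fold (SE 0.11, limma adjusted p = 1.29e-07), whereas the steps from 7 h to 14 h (-0.043) and from 14 h to 21 h (-0.030) were not called, with adjusted p = 0.833 and 0.859. Against 0 h it was -0.52 at 3 h (adjusted p = 0.00193), then -0.28 at 14 h and -0.31 at 21 h, and it ended 0.97 higher (adjusted p = 5.18e-07). The 14 h call, at adjusted p = 0.0449, was lost on leaving out any of 12 arrays (adjusted p from 0.0504 to 0.173), namely 0 h replicates 1 and 3, 7 h replicate 1 and each array of 3, 14 and 21 h. The 21 h call was lost without 21 h replicate 2 or without 0 h replicate 1 or 3 (adjusted p = 0.0691, 0.0635 and 0.0938). At 14, 21 and 30 h the 3' to 5' gap was 1.87, 2.15 and 2.20 for Actb, 1.19, 1.52 and 1.52 for Gapdh, 2.03, 2.43 and 2.41 for the transferrin receptor and 3.11, 2.89 and 2.60 for pyruvate carboxylase. The part of RNA length in the rise was not tested.

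Ube2h, the E2 of the CTLH ligase, dipped and then climbed. The probe set used (1418631_at) read 9.71, 9.69 and 9.57 at 0 h, 9.37, 9.30 and 9.24 at 3 h, 9.69, 9.82 and 9.82 at 7 h, 10.02, 9.998 and 10.08 at 14 h, 10.73, 10.63 and 10.60 at 21 h and 11.56, 11.45 and 11.48 at 30 h. From 7 h on the arrays of each time lay above those of the time before, and the 30 h arrays were the highest. The differences from 0 h were -0.35 at 3 h (adjusted p = 0.000539), 0.12 at 7 h (adjusted p = 0.155), 0.38 at 14 h, then 0.999 at 21 h and 1.84 by 30 h, which is 3.58-fold (SE 0.061, limma adjusted p = 2.75e-13). The last step alone added 0.84 (SE 0.061), and 54.2% of the 30 h log2 difference had been reached by 21 h. Its other 3 probe sets, dimmer by at least 2.32 on the log2 scale, rose too at 30 h, by 2.48, 1.97 and 1.25 (limma over every 1-gene probe set, adjusted p = 1.95e-10, 1.65e-11 and 6.04e-08), as did 25.3% of those probe sets. They gave -0.14, -0.035 and -0.19 from 7 h to 14 h, where the probe set used gave 0.26, so that step rests on 1 probe set.

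RefSeq (GRCm38.p6) lists a pair of transcript starts for Ube2h, and the window from 250 bases before to 50 after each is shown because Ube2h had the third largest rise and its windows differ. The capitals mark the sole match to the GATA motif, searched on both strands as the letters AGATAA, with the first base also allowed as T, the last also as G, or both. It starts at position -204 from the inner start, and the window of the outer start has 0.
Ube2h outer start, chr6:30304490-30304789, minus strand: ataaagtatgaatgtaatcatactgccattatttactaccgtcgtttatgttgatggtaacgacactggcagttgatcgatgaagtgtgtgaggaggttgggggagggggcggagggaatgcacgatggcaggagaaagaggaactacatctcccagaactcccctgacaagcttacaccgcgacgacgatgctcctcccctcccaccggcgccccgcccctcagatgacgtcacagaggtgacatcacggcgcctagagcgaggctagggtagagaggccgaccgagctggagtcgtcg
Ube2h inner start, chr6:30243754-30244053, minus strand: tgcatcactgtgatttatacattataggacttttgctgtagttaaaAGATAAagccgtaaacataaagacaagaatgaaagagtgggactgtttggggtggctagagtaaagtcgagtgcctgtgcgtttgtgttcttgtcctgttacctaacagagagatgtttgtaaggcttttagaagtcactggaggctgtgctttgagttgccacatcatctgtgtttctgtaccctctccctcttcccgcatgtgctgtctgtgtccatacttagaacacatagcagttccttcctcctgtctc

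Ube2b, also called RAD6B, is the E2 that pairs with the ligases RAD18, RNF20-RNF40 and UBR1 or UBR2. Its arrays (1423106_at) read 9.68, 9.67 and 9.59 at 0 h, 9.50, 9.49 and 9.52 at 3 h, 9.77, 9.86 and 9.88 at 7 h, 10.08, 10.08 and 10.17 at 14 h, 10.57, 10.45 and 10.42 at 21 h and 11.03, 11.02 and 11.04 at 30 h. The spread at each time was small against the change, and from 7 h on every time stood above the one before. It was -0.14 at 3 h (adjusted p = 0.0652), 0.19 at 7 h (adjusted p = 0.0143), 0.47 at 14 h, then 0.83 at 21 h and 1.39 by 30 h, which is 2.61-fold (SE 0.054, limma adjusted p = 1.69e-12). The 7 h call was lost without 0 h replicate 3, 7 h replicate 2 or 7 h replicate 3 (adjusted p = 0.0592, 0.0533 and 0.0593). Its 3 other probe sets rose at 30 h by 0.71, 1.01 and 1.01 (adjusted p = 4.9e-07, 6.92e-07 and 7.28e-07). At 21 h the probe set nearly as bright as the one used gave 0.13 (adjusted p = 0.205), where the one used gave 0.83. The rise at 30 h was called on 4 of 4 probe sets (25.3% of all 1-gene probe sets), and that at 21 h on 2 of 4 (20.6% of all).

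**Figure D2:**
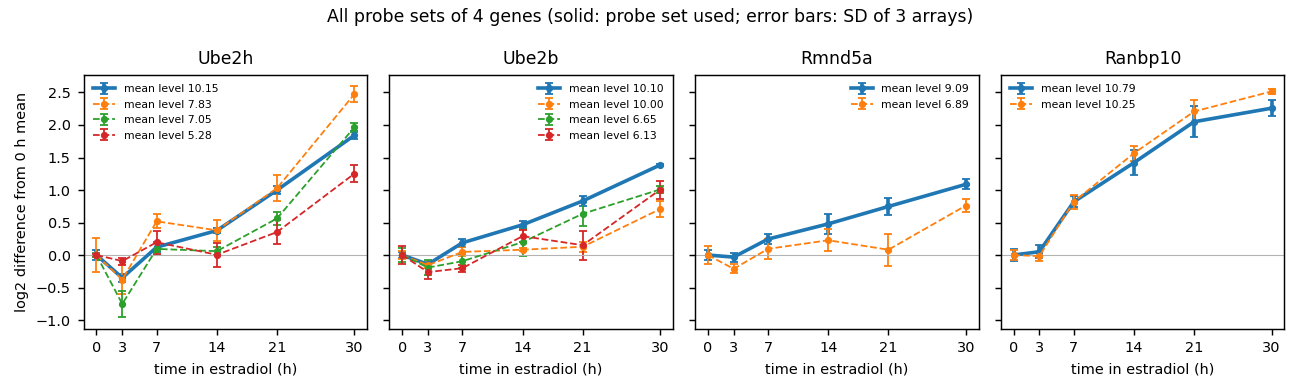
Mean log2 difference from 0 h (vertical axis) against hours in estradiol for every 1-gene probe set of Ube2h, Ube2b, Rmnd5a and Ranbp10, each labelled with its mean log2 level; the solid line is the probe set used and bars are the SD of 3 arrays. All lie above 0 at 30 h, the 2 of Ranbp10 run together, and the probe sets of Ube2b and Rmnd5a part at 21 h.

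Among the CTLH subunits of the set, Rmnd5a and Ranbp10 rose by 30 h and Maea was not called. Maea, a RING subunit first described as a protein of contacts between erythroblasts and macrophages, read 10.12, 10.05 and 10.06 at 0 h, 9.86, 9.84 and 9.75 at 3 h, 10.01, 9.92 and 9.93 at 7 h, 9.66, 9.78 and 9.88 at 14 h, 9.95, 9.91 and 9.82 at 21 h and 10.15, 10.04 and 10.18 at 30 h. Its arrays at 3, 7, 14 and 21 h all lay below those at 0 h, and the 30 h arrays overlapped the 0 h arrays. The 7 h difference, -0.12, was not called (limma adjusted p = 0.169). The differences from 0 h (1423031_at) were -0.26 at 3 h (adjusted p = 0.00718), -0.30 at 14 h (adjusted p = 0.00114), -0.18 at 21 h (adjusted p = 0.025) and 0.051 at 30 h, with a 95% interval of -0.087 to 0.19. From 14 h to 30 h its change was 0.35 (adjusted p = 0.000213). Control scaling gave 0.33 there (adjusted p = 0.211). The 21 h call was lost without 0 h replicate 1 or 21 h replicate 3 (adjusted p = 0.0847 and 0.0964). A second Maea probe set, at a mean of 2.79, lay below the 40th percentile and was not called in any of the 10 comparisons.

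Rmnd5a, the partner RING subunit, rose gradually. Its arrays (1426884_at) read 8.68, 8.73 and 8.59 at 0 h, 8.70, 8.56 and 8.64 at 3 h, 8.83, 8.91 and 8.99 at 7 h, 9.32, 9.01 and 9.10 at 14 h, 9.28, 9.42 and 9.54 at 21 h and 9.84, 9.69 and 9.73 at 30 h. Neighbouring times lay close or overlapped, as at 0 h and 3 h and at 14 h and 21 h, and all 30 h arrays stood above those of the other times. The difference from 0 h was 0.25 at 7 h (adjusted p = 0.0374), 0.48 at 14 h, then 0.75 at 21 h and 1.09 by 30 h, which is 2.12-fold (SE 0.085, limma adjusted p = 8.3e-09). The 7 h call was lost without 0 h replicate 1 or 3 or 7 h replicate 2 or 3, with adjusted p of 0.0764 to 0.135, and with the replicate number as a block (adjusted p = 0.0501). The step from 14 h to 21 h, 0.27 (adjusted p = 0.0233), was lost without 14 h replicate 2 or 3 or 21 h replicate 2 or 3 (adjusted p from 0.0544 to 0.107), and the last, 0.34, held without any 1 array. A dimmer probe set gave 0.082 at 21 h (adjusted p = 0.643) and 0.76 at 30 h (adjusted p = 5.11e-05), so the 30 h rise was called on both and the 21 h rise on 1.

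Ranbp10, a CTLH scaffold subunit that also binds beta-1 tubulin in platelets, had the largest rise of the set at 30 h. The probe set used (1424584_a_at) read 9.62, 9.67 and 9.79 at 0 h, 9.65, 9.85 and 9.74 at 3 h, 10.61, 10.47 and 10.45 at 7 h, 10.90, 11.21 and 11.23 at 14 h, 11.99, 11.72 and 11.52 at 21 h and 11.99, 11.82 and 12.05 at 30 h. The 0 h and 3 h arrays overlapped, those of 7, 14 and 21 h formed separate and higher groups, and the 21 h and 30 h arrays overlapped again. It was 0.051 at 3 h (adjusted p = 0.791), 0.82 at 7 h, 1.42 at 14 h, then 2.05 at 21 h and 2.26 by 30 h, which is 4.78-fold (SE 0.11, limma adjusted p = 3.99e-11). By 21 h it had reached 90.8% of the 30 h log2 difference. The step from 21 h to 30 h, 0.21, was not called (adjusted p = 0.167), but was without 21 h replicate 1 (0.33, adjusted p = 0.0259). Its other probe set rose by 2.21 at 21 h and 2.52 at 30 h, and there the last step was called (0.31, adjusted p = 0.024), as it was with the mean of both probe sets (0.26, adjusted p = 0.0439).

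The remaining CTLH subunits were read beside these. Of 8 listed, all 8 were tested, and at 30 h 5 were higher and 1 lower (all tested genes, 36.6% and 33%), with a median log2 difference of 0.59 against 0.094 over all genes. Ypel5, a small zinc-binding subunit, rose most, from 10.06 to 12.22 (2.17, limma adjusted p = 3.35e-15), followed by Mkln1 (1.29), which joins CTLH rings into larger assemblies, and Rmnd5b (1.04). Gid8 and Wdr26, scaffold subunits, rose by 0.60 and 0.59. Gid4, the substrate receptor, fell by 0.74 (adjusted p = 7.42e-09). Armc8 (0.048, adjusted p = 0.586) was not called. Neither was Ranbp9 (0.19, adjusted p = 0.335), read on a probe set that may cross-hybridise. At 3 h, 2 of the 8 were higher and 0 lower (11.2% and 14.7% of tested genes).

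**Figure D3:**
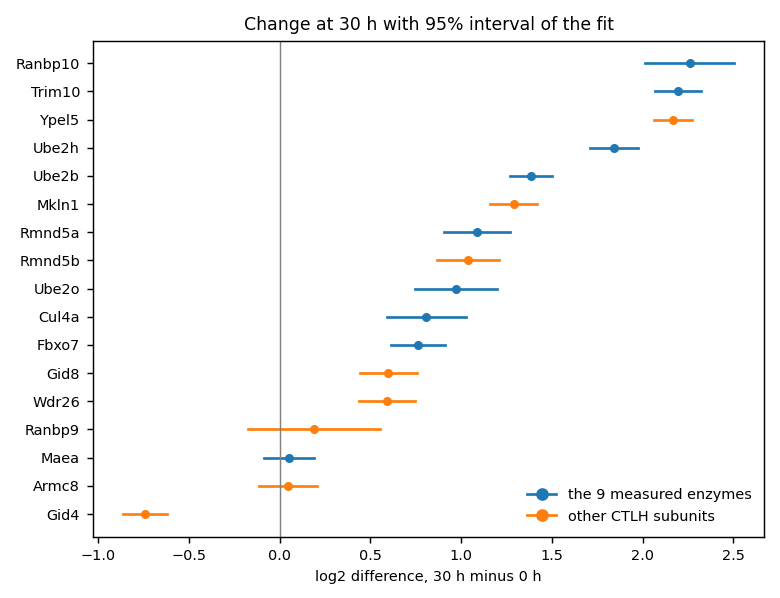
Log2 difference between 30 h and 0 h (horizontal axis) for the 9 measured enzymes and 8 other CTLH subunits, with the 95% interval from limma across all 18 arrays. Gid4 lies below 0, the intervals of Maea, Armc8 and Ranbp9 include 0, and Ranbp10, Trim10 and Ypel5 lie furthest to the right.

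Trim10, a RING-finger gene of blood-forming cells known as HERF1 and studied in mouse erythroid differentiation, rose early and kept rising. Its single probe set (1419311_at) read 7.81, 7.83 and 7.84 at 0 h, 7.66, 7.86 and 7.65 at 3 h, 8.66, 8.68 and 8.57 at 7 h, 9.36, 9.27 and 9.27 at 14 h, 9.72, 9.69 and 9.68 at 21 h and 10.06, 9.95 and 10.06 at 30 h. The 0 h and 3 h arrays overlapped, and each later time formed a separate, higher group. It was -0.10 at 3 h (adjusted p = 0.239), then 0.81 at 7 h, 1.47 at 14 h, then 1.87 at 21 h and 2.20 by 30 h, which is 4.58-fold (SE 0.060, limma adjusted p = 2.93e-14). The successive steps were 0.91 between 3 h and 7 h, then 0.66, 0.40 and 0.32, each called. Their order depended on scaling: control scaling gave 0.77 and 0.94, both called, then 0.19 and 0.51 (adjusted p = 0.609 and 0.0527). At 7 h its change exceeded that of 97.5% of tested genes, and that of Ranbp10 exceeded 97.6%.

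The window around the RefSeq start of Trim10 is shown because Trim10 had the smallest adjusted p of the set at 30 h and 1 match to the same GATA motif, read on the opposite strand and in capitals, at position -163 from the start.
Trim10, chr17:36869324-36869623, plus strand, GRCm38.p6: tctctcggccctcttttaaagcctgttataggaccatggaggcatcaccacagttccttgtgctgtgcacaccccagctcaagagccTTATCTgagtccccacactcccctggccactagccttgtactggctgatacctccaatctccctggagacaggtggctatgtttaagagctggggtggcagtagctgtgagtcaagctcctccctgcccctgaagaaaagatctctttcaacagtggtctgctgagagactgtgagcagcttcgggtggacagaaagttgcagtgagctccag

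Such windows were at hand for 7 of the 10 genes, 10 windows in all, and none was found in the table for Ube2o, Maea or Ranbp10. A GATA match lay in 3 of the 10 (Trim10, Ube2h and Trim58) and in 29.8% of 32851 windows of all genes. Matches to CCNCNCCC on either strand, a letter pattern of CACC boxes that may overlap itself, lay in 5 of the 10 (Rmnd5a and both windows of Ube2b and of Ube2h) and in 49.5% of all windows. Both shares are near the background.

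Cul4a, the scaffold of the CRL4 ligases that join DDB1 and a receptor to a RING protein, changed early and then held. Its probe set (1451971_at) read 9.48, 9.43 and 9.75 at 0 h, 10.26, 10.41 and 10.39 at 3 h, 10.63, 10.31 and 10.64 at 7 h, 10.36, 10.40 and 10.38 at 14 h, 10.36, 10.21 and 10.14 at 21 h and 10.50, 10.24 and 10.35 at 30 h. Every array from 3 h on stood above every 0 h array, and the later times overlapped one another except 14 h and 21 h. At 3 h its difference from 0 h was 0.80, or 1.74-fold (SE 0.10, adjusted p = 2.98e-05), more than that of 98.8% of tested genes. It was 0.97 at 7 h, then 0.83 and 0.68 at 14 h and 21 h, and 0.81 by 30 h, and 0 of the 4 later steps were called, with adjusted p from 0.304 to 0.368. With control scaling the 3 h difference was 0.90 (adjusted p = 0.000471).

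The window of the Cul4a start is shown because Cul4a was the 1 gene of the set called higher at 3 h, and it held 0 matches to either motif.
Cul4a, chr8:13105373-13105672, plus strand, GRCm38.p6: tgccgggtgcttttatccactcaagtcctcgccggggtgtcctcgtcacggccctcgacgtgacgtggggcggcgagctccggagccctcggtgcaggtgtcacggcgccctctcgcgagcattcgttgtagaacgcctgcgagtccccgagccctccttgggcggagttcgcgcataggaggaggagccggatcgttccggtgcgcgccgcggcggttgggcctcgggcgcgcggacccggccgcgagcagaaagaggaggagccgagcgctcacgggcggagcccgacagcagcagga

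Fbxo7, an F-box protein that serves as receptor of an SCF ligase, binds the proteasome regulator PI31 and aids the assembly of CDK6 with D cyclins, dipped and then rose. Its arrays (1452739_at) read 9.31, 9.19 and 9.30 at 0 h, 9.01, 9.03 and 8.99 at 3 h, 9.12, 9.29 and 9.14 at 7 h, 9.57, 9.59 and 9.68 at 14 h, 10.03, 9.77 and 9.81 at 21 h and 9.98, 10.04 and 10.08 at 30 h. The 3 h arrays lay below all others, the 7 h arrays overlapped those at 0 h, and the 14, 21 and 30 h arrays lay above them. It was -0.26 at 3 h (adjusted p = 0.0137, or 0.0571 without 0 h replicate 1), -0.084 at 7 h (adjusted p = 0.411), 0.34 at 14 h, then 0.60 at 21 h and 0.76 by 30 h, which is 1.7-fold (SE 0.071, limma adjusted p = 7.3e-08). The steps of 0.43 from 7 h to 14 h and 0.26 from 14 h to 21 h were called, the second not without 21 h replicate 1 (adjusted p = 0.0531), and the last, 0.16, was not (adjusted p = 0.0846), except without 21 h replicate 1 (adjusted p = 0.00929).

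Step by step, 5 of the 9 were called higher from 3 h to 7 h (9.81% of tested genes), 5 from 7 h to 14 h (11.5%), 6 from 14 h to 21 h (15.7%) and 6 from 21 h to 30 h (18%). At each of these steps 0 members were lower, when 5.14%, 10.8%, 17.5% and 22.5% of tested genes were. From 14 h to 30 h all but Cul4a were higher, 8 of 9 with 0 lower, beside 28.4% higher and 28.5% lower of tested genes. Control scaling called 1 of the 9 higher from 3 h to 7 h (Trim10) and 0 from 14 h to 21 h. It also lost the calls of Ube2h from 7 h to 14 h (limma adjusted p = 0.0581) and of Maea and Trim10 from 21 h to 30 h (0.115 and 0.0527). From 14 h to 30 h it lost those of Maea and Fbxo7 (adjusted p = 0.211 and 0.126).

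Close paralogs of 4 of the genes were set beside them. The comparison is of changes, since the levels of different probe sets cannot be compared. From 0 h to 30 h, Ube2b rose by 1.39 and Ube2a, its near-identical twin RAD6A, by 0.43, a difference of 0.96. Ranbp10 rose by 2.26, against 0.19 for Ranbp9, a difference of 2.07. Cul4a rose by 0.81 and Cul4b by 0.20, a difference of 0.61. In these 3 pairs the member-minus-paralog value of every 30 h array lay above that of every 0 h array. The share of other gene pairs that separate so was not tested, and 37.7% of single tested genes separated upward from 0 h to 30 h. The exact two-sided permutation p was 0.1 for each pair (0.133 adjusted over the 4 pairs). A p of 0.1 is the smallest that 3 arrays against 3 allow, so no difference could pass the threshold.

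Rmnd5a and Rmnd5b both rose, by 1.09 and 1.04, and their difference of 0.052 overlapped between the times (exact permutation p = 0.9). Rmnd5b read 9.38 ± 0.15 at 0 h and 10.42 ± 0.012 at 30 h (mean ± SD, n = 3). Cul4b, like Cul4a, was higher by 3 h (0.27, limma adjusted p = 0.00179), from 10.48 ± 0.043 to 10.75 ± 0.041, and Ube2a was not called then (0.039, adjusted p = 0.771). With all probe sets of a gene averaged, the Ube2b minus Ube2a difference was 0.60.

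**Figure D4:**
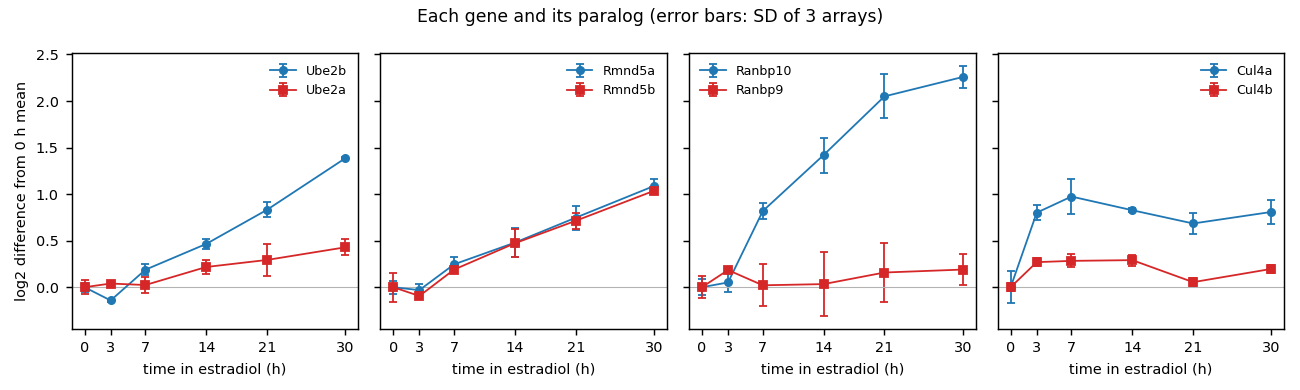
Mean log2 difference from 0 h (vertical axis) against hours in estradiol for 4 members (circles) and their paralogs (squares), with bars for the SD of 3 arrays. Rmnd5a and Rmnd5b overlie each other, and Cul4a and Cul4b both step up by 3 h. Ranbp10 ends 2.26 above its 0 h level and Ranbp9 0.19 above, on a probe set that may cross-hybridise.

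The genes with the most similar time courses were found by the root mean square distance between the 5 log2 differences from 0 h. Tested genes with placeholder symbols (starting with a digit or LOC, Gm with a number, or ending in Rik) were left out of the search. All these courses share the 0 h arrays. For Trim10 the nearest were Ccdc134 (0.095), Ranbp10 (0.111) and Lmna (0.12), and for Ranbp10 they were Ccdc134 (0.106), Trim10 (0.111) and Lmna (0.114). The distance of 0.111 between them was the smallest among the 36 pairs of members. Rmnd5a had Commd9 (0.0411), its paralog Rmnd5b (0.0468) and Ubl7 (0.0511). The nearest to Ube2h was Arfgap3 (0.0762), to Ube2b Tmem106b (0.0561), to Maea Timmdc1 (0.0351) and to Fbxo7 Ogfod2 (0.0427). For Ube2o it was Prkx (0.152) and for Cul4a Pdzd8 (0.0718).

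Partners and reported substrates of the enzymes moved in both directions. Of 16 listed, 14 were tested, and at 30 h 8 were higher and 2 lower (36.6% and 33% of all tested genes), with a median of 0.47 against 0.094 over all tested genes. The UBE2B partners Ubr2 and Ubr1 rose by 1.19 and 0.56 and Rnf20 by 0.49, Rad18 fell by 0.43, and Rnf40 was not called (-0.062, adjusted p = 0.453). For FBXO7, Psmf1, which encodes PI31, rose by 1.63 and Cdk6 fell by 3.05 (limma adjusted p = 5.07e-16). Cdkn1b, a cell cycle inhibitor and reported CRL4 substrate, rose by 1.59. Tubb1, the tubulin bound by RANBP10, rose by 8.18 from a 0 h mean of 2.43, below the 40th percentile, so the size of that rise is uncertain. Among subunits of dynein, the motor that TRIM58 binds, Dync1i2 and Dync1h1 rose by 0.71 and 0.31, and Dync1li1 (0.45, adjusted p = 0.385) and Dync1li2 (0.15, adjusted p = 0.251) were not called. Hba-a2, an alpha globin gene whose unpaired product UBE2O clears, gave 0.14 (adjusted p = 0.24). Hba-a1, also listed, had a mean of 2.48 at 30 h, below the 40th percentile, and was not tested. Probe sets annotated to several genes were not used, so the change in alpha globin RNA as a whole was not tested.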

How the data were processed

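The authors deposited log2 expression values for 45101 probe sets on 18 arrays, made from total RNA per the labels' protocols. The log base was inferred from their range (0.88 to 14.4), and the sources used here do not state how probes were summarised or arrays scaled, or any scan date. Probe sets were named by the platform annotation (34945 with 1 gene, 932 with several), and the brightest 1-gene probe set stood for a gene. Genes above the 40th percentile on at least 3 arrays were tested.

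All arrays were fitted in limma 3.58.1 (R 4.3.3), with 1 mean per time and 12 residual degrees of freedom, and two-sided p-values were adjusted by Benjamini-Hochberg over all 12719 genes. The code was tested on simulated data. Members and lists were chosen with earlier results of these data known. Named genes are the members, paralogs, CTLH subunits, partners, up to 4 called genes with the largest 30 h change in each other list, and the nearest genes. Alternatives were 3 other scalings, other filters and probe set rules, another variance model, fewer arrays, a 2-fold minimum, a replicate block and leaving out each array. Same-numbered arrays deviated together (r over 0.1) in 7 of 45 pairs, so arrays are not treated as paired. With 3 arrays a time, their number limits the precision.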

Additional observations from a re-analysis of the deposited data

How the results depend on the processing

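The 8 rises at 30 h held under every alternative but the 2-fold minimum, which kept 5. The 9 changes in the F test held under all alternatives run for it. Hybridisation control scaling gave 0 members lower at 3 h, 14 h and 21 h (main 4, 2 and 2), 3 higher at 7 h (main 5), 1 higher from 3 h to 7 h (main 5) and 0 higher from 14 h to 21 h (main 6). Over all genes it moved counts too, from 1420 to 463 higher and 1871 to 285 lower at 3 h, 1944 to 548 higher and 2077 to 653 lower at 7 h, 2887 to 812 lower at 14 h, 3989 to 2402 higher and 3635 to 2327 lower at 21 h, 4195 to 2585 lower at 30 h, 1248 to 127 higher from 3 h to 7 h, 1992 to 122 higher from 14 h to 21 h and 3609 to 1642 higher from 14 h to 30 h. For the step from 14 h to 21 h, only its own arrays gave 1068 higher. The cause was not tested. Members lower at 14 h were 1 (main 2) with quantile scaling, equal medians, no filter, the mean of probe sets and a fit of only the arrays compared. Members lower at 21 h were 1 (main 2) with the same settings except no filter. From 7 h to 14 h, 1 was lower (main 0) with quantile scaling, the 60th-percentile filter and a trended robust variance. The 2-fold minimum gave 0 higher and 0 lower at 3 h, 0 higher at 7 h, 2 higher and 0 lower at 14 h, 2 higher and 0 lower at 21 h, 0 higher at the steps to 7, 14 and 21 h, 1 at the step to 30 h and 2 from 14 h to 30 h. With the mean of probe sets the paralog differences were 0.60 for Ube2b (main 0.96), -0.11 for Rmnd5a (main 0.052) and 2.35 for Ranbp10 (main 2.07), and without cross-hybridising probe sets 2.37 for Ranbp10.

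Leaving out 1 array gave 8 to 8 members higher at 30 h, 7 to 7 at 14 h and at 21 h, 3 to 5 at 7 h, 5 to 6 and 5 to 6 at the steps to 14 h and 21 h, 6 to 8 at the step to 30 h and 4 to 6 from 3 h to 7 h. Members lower were 3 to 5 at 3 h, 0 to 1 at 7 h, 1 to 2 at 14 h, 0 to 2 at 21 h and 0 to 1 from 7 h to 14 h. The paralog difference of Rmnd5a ranged from -0.073 (without 0 h replicate 3) to 0.15, that of Ube2b from 0.89 to 1.01, of Ranbp10 from 1.92 to 2.18 and of Cul4a from 0.55 to 0.69. With the replicate number as a block, 4 members were higher at 7 h (main 5) and 4 from 3 h to 7 h (main 5), since Rmnd5a reached adjusted p = 0.0501 and 0.0533; 6 of 18 arrays correlated best with their own number, and no other call of a member changed.

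Some differences changed sign. Control scaling gave 0.066 for Rmnd5a at 3 h, -0.0072 for Maea from 3 h to 7 h, 0.23, 0.099 and 0.13 for Ube2o, Maea and Cul4a from 7 h to 14 h, and -0.095 for Maea from 14 h to 21 h. Quantile scaling gave 0.044 for Ube2o from 14 h to 21 h. The mean of probe sets gave -0.015 for Ube2b and 0.097 for Maea at 7 h, 0.041 for Maea at 21 h and -0.028 for Ube2h from 7 h to 14 h. With single arrays left out, Rmnd5a at 3 h ranged from -0.070 to 0.0034 and Ranbp10 from -0.0011 to 0.0997, Ube2o from -0.12 to 0.025 between 7 h and 14 h and from -0.049 to 0.0047 between 14 h and 21 h, and Cul4a from -0.086 to 0.042 between 14 h and 30 h. The mean of probe sets and single probe sets turned some differences that were called: Ube2h from 7 h to 14 h, Ube2b at 7 h and from 14 h to 21 h, Rmnd5a from 14 h to 21 h, and Maea at 14 h, at 21 h and from 21 h to 30 h. Single probe sets gave, for Ube2h from 7 h to 14 h, -0.19, -0.035 and -0.14; for Ube2b -0.20 and -0.095 at 7 h and -0.14 from 14 h to 21 h; for Rmnd5a -0.15 from 14 h to 21 h; for Ranbp10 -0.017 at 3 h; and for the dim Maea probe set 0.32, 0.16 and 0.26 at 7, 14 and 21 h and -0.098 from 21 h to 30 h.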

Other observations

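Wider families of the ubiquitin system, taken by symbol with the members left out, were split at 30 h. Of 29 tested E2 genes (31 measured), 11 were higher and 7 lower than at 0 h (all tested genes, 36.6% and 33%). Their median log2 difference was 0.081, against 0.094 over all tested genes. Ube2l6, the E2 of the ubiquitin-like protein ISG15, rose by 3.72, Ube2j1, an E2 of the endoplasmic reticulum, by 2.28 and Ube2r2, an E2 of SCF ligases, by 1.22 (limma adjusted p = 2.12e-13, 1.62e-14 and 2.53e-11). The symbol rule also took Ube2cbp, which is no E2 and fell by 3.50. Of 50 tested F-box genes (68 measured), 28 were higher and 13 lower, with a median of 0.30. Skp2, the receptor that marks the inhibitor p27 for destruction, fell by 3.99, and Fbxl19 and Fbxo34 rose by 3.50 and 1.79. Among 7 other cullins 2 rose and 3 fell, with Cul7 at -2.06. Of 17 tested CRL4 receptor genes (18 measured), 8 were higher, among them Dcaf11 (1.73) and Crbn (1.38), and 8 lower, among them Dtl (-1.61), the receptor used in DNA replication.

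Core parts of the cullin ligases were 6 higher and 7 lower of 18 tested, with a median log2 difference of -0.038. The 4 largest called changes were falls, and the 6 genes that rose changed less. These falls were Cand2 (-2.03), Glmn (-1.48), the signalosome subunit gene Cops3 (-1.14) and Cand1 (-0.87), the exchange factor of cullin receptors. Uba6, the only E1 gene with a probe set of its own among 6 ubiquitin and E1 genes listed, fell by 1.56 (limma adjusted p = 4.8e-12). Of 36 tested TRIM genes (57 measured), 14 were higher and 12 lower, led by Trim35 (-1.59) and Trim26 (1.51). Of 46 ubiquitin-specific proteases (48 measured), 19 were higher and 15 lower, with Usp2 at -2.77, Usp40 at -1.82, Usp18 at 1.77 and Usp29 at -1.51. Among 23 other tested E3 genes 11 rose and 10 fell, and the membrane-bound Marchf8 (2.74) and Marchf2 (2.16) and the large HECT ligase Herc2 (1.76) rose most. Across all tested genes 36.6% were higher and 33% lower, and families are given by their tested genes, which low-value filtering selected.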
